A study of Mus musculus with 4 samples.

Results

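The marrow of mice treated by electro-acupuncture was compared with control marrow, gene by gene, on 1 pooled microarray each, so 2 of the 4 arrays of the study carry the comparison and the other 2 are given beside it. Each value is the deposited log2 level of a transcript cluster, a probe group that stands for a gene or part of it, and a difference is the electro-acupuncture value minus the control value. Of 30702 genes named from a cluster of their own, 17208 had a mean level over the 4 arrays at or above 5.235, the median of all clusters, and were compared. Protein-coding genes numbered 11228 and are read first.

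The study measured marrow RNA of mice in 4 groups, labelled control, treatment of electro-acupuncture, treatment of astragalus membranaceus (a herbal root preparation, astragalus for short) and cisplatin (a platinum drug toxic to dividing marrow cells). Marrow was spun from the tibias after 2 weeks of treatment, its RNA was extracted with Trizol, and 6 ug of RNA went into the labelling reaction. The design text speaks of 6 marrow samples that were mixed, read here as 6 per group although this is not stated outright, so each array shows an average over animals and the spread between animals was not measured. The sources used here do not give strain, age, acupuncture points, stimulation settings or doses, nor whether the electro-acupuncture and astragalus mice also received cisplatin. A second label of the electro-acupuncture array says acupuncture without the word electro.

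Electro-acupuncture passes a small current through needles placed at chosen points of the body. Bone marrow is the tissue in which blood stem cells give rise to red cells, platelets, granulocytes, monocytes and B cells. Stromal cells, vessels, bone-forming cells and fat cells around them supply signals such as Cxcl12 and Kitl that hold the stem cells in place and keep them alive. A bulk marrow profile sums all of these cells, so a gene can read higher because more cells of a type are present or because each cell holds more of its RNA. These cannot be told apart here, and the same holds for lower values.

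The control array stood apart from the other 3. Over protein-coding genes, the differences from control had a standard deviation of 0.403 for electro-acupuncture, 0.421 for astragalus and 0.353 for cisplatin, against 0.277 between electro-acupuncture and astragalus and 0.284 between electro-acupuncture and cisplatin. At a distance of at least 1 beyond all 3 other arrays, the control array had 109 protein-coding genes, 95 of them below, and the electro-acupuncture array had 2. The comparisons of the 3 treated arrays with control share that 1 control array, so a departure of it enters all of them alike, and whether it lay in the mice or in the array was not tested. The tissue label was checked on marker lists. The granule protein genes Mpo, Ltf and Camp of marrow neutrophils stood between 11.70 and 18.42 on all 4 arrays, and all 7 skeletal muscle genes compared and all 3 cartilage genes compared stayed within 1 of the floor. Values had a ceiling of 19.93, and 32 genes were at it on both arrays compared, so their difference was not measurable. Of 561 genes with a mean of at least 14, 85 had the same value on the 3 treated arrays, 20 of them with another value on control.

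In number, 1249 of the 17208 genes, 7.26%, differed at least 2-fold in level, that is by 1 or more on the log2 scale. Higher by any amount were 53.7% of all genes and lower 44%. The protein-coding count was 365, or 3.25%, of which 305 (2.72%) were higher on the electro-acupuncture array and 60 (0.534%) lower. Higher genes thus made up 83.6% of the protein-coding genes that far apart, with a 95% Wilson interval from 79.4% to 87.0% that covers the counting of genes only. The median difference over all protein-coding genes was 0.03, the 5th percentile -0.52 and the 95th 0.75, and 53.3% of them were higher by any amount and 44.6% lower. With the trend of the difference over the level removed by a smooth curve, the higher share was 77.3%, from 252 higher and 74 lower genes. With 1 array per group there is no spread between replicates, no test was run, and every difference is a size only. Brighter genes held most of the differences. Among the 2802 protein-coding genes with the highest mean levels 209 were at least 2-fold higher and 41 lower, and among the 2819 with the lowest 4 and 1.

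**Figure D1:**
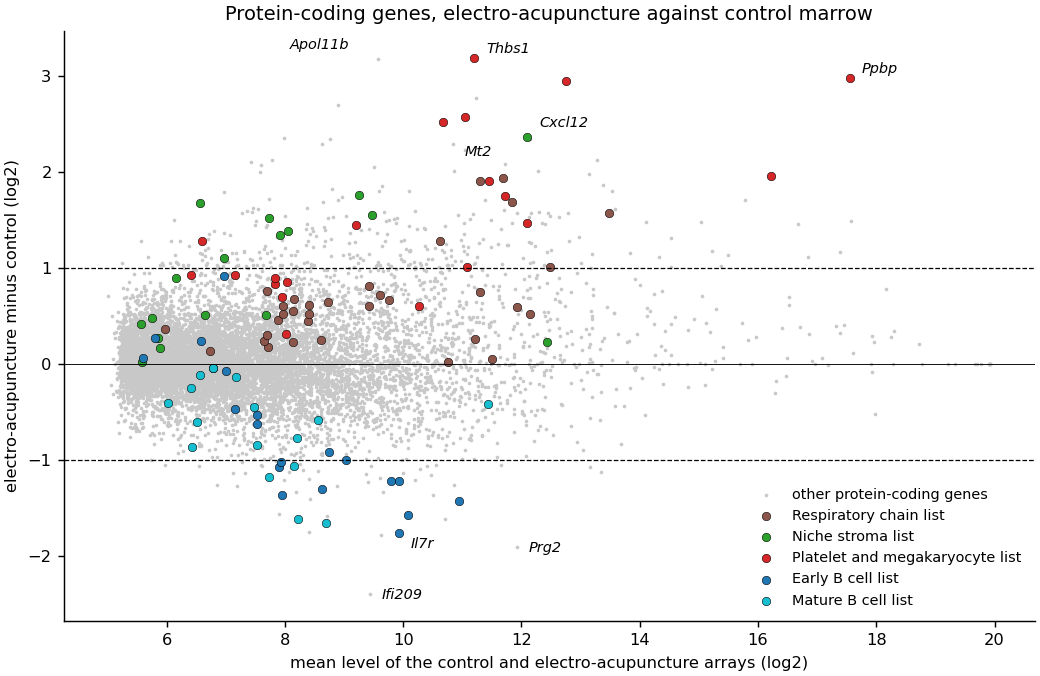
Each point is a protein-coding gene; the horizontal axis is its mean level on the control and electro-acupuncture arrays (log2), the vertical axis the electro-acupuncture minus control difference (log2), coloured points are members of 5 lists, and dashed lines mark a 2-fold difference. Platelet genes such as Thbs1 (3.19) and Ppbp (2.98) lie far above 0 and B cell genes such as Il7r (-1.76) below it.

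Gene lists for marrow cell types, stress responses and metabolism were read by the number of members higher or lower and by their median, beside the median of 0.03 over all protein-coding genes. Counts of protein-coding members are to be read beside the shares over all protein-coding genes. Those shares were 53.3% higher by any amount, 2.72% at least 2-fold higher and 0.534% at least 2-fold lower. Of these lists, 42 had at least 5 members compared. Their highest medians were 2.00 for apolipoprotein L genes (0.23 without the level filter), 1.71 for stefins, 1.37 for platelet genes, 1.01 for neutrophil primary granule genes and 0.90 for marrow stroma genes. The lowest were -0.955 for early B cell genes and -0.58 for mature B cell genes.

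**Figure D2:**
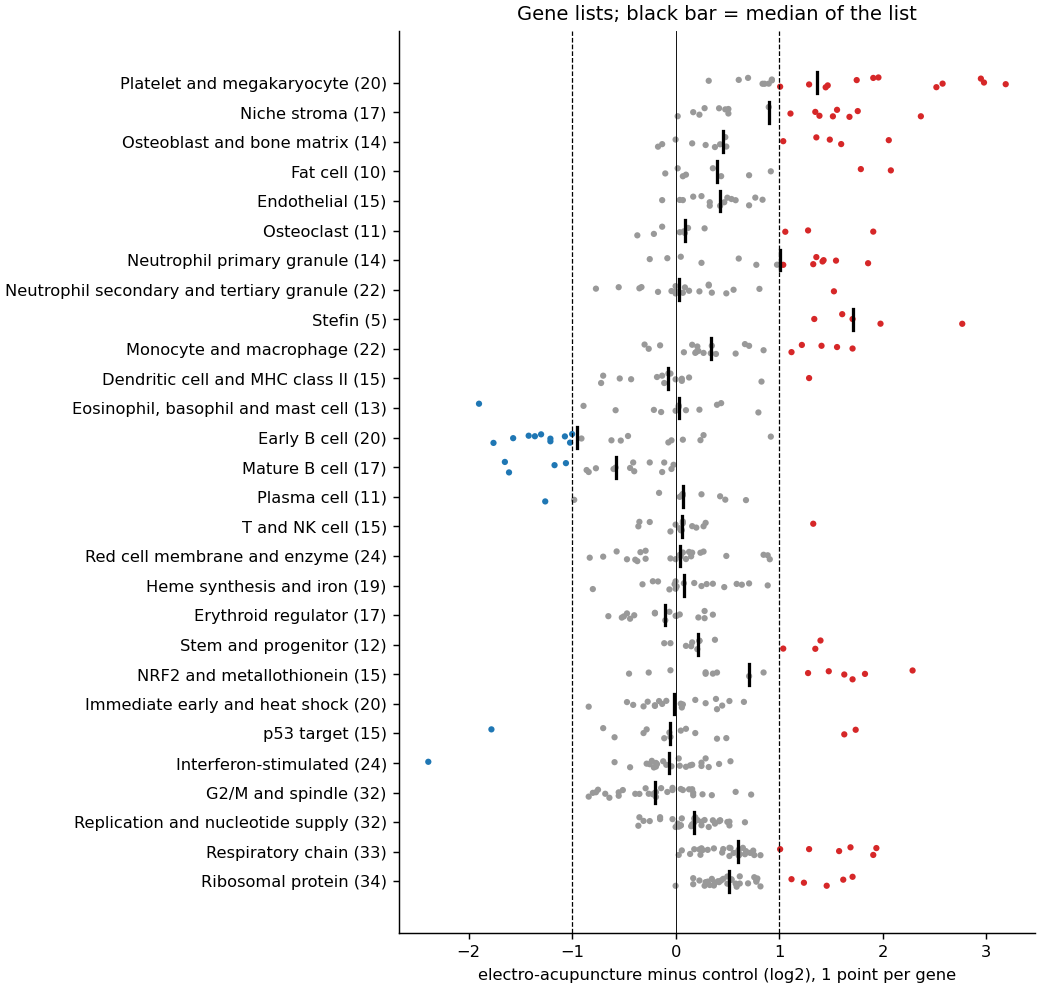
Each row is a gene list with the number of members compared in brackets, each point 1 gene placed at its electro-acupuncture minus control difference (log2), with genes at least 2-fold higher in red and lower in blue; the black bar is the list median. All 20 platelet genes lie right of 0 with a median of 1.37, all 17 mature B cell genes left of it with a median of -0.58, and red cell genes (median 0.045) lie on both sides.

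Genes of platelets and of megakaryocytes, the large marrow cells that shed them, were higher throughout. All 20 members compared were higher on the electro-acupuncture array and 12 of them at least 2-fold, where 2.72% of all protein-coding genes were; the smallest difference was 0.32, for Itga2b, a chain of the fibrinogen receptor. Thbs1, which encodes the adhesive platelet protein thrombospondin, read 9.61 on control, 12.80 on electro-acupuncture, 12.53 on astragalus and 12.70 on cisplatin. It was 9.13-fold higher than control, and control alone was low. Ppbp, the precursor of a platelet chemokine, stood at 16.06, 19.04, 18.96 and 18.63 in the same order, a 7.89-fold difference. Gp5, a subunit of the receptor for von Willebrand factor, had 9.75, 12.33, 12.02 and 11.81, and was 5.98-fold higher. Alox12, a lipid-oxidising enzyme of platelets, had 9.41, 11.93, 11.77 and 11.67, a 5.74-fold difference. In each of these genes the control array was the low value and the 3 treated arrays lay close together.

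Cytoskeletal genes of platelets were lowest on control as well. Tuba4a, an alpha-tubulin of platelets, read 11.28 on control, 14.23 on electro-acupuncture, 14.95 on astragalus and 13.10 on cisplatin, and Tubb1, the beta-tubulin of the platelet rim, 10.85, 12.60, 12.34 and 12.48. Itgb3, the other chain of the fibrinogen receptor and also an osteoclast gene, had 10.50, 12.41, 12.37 and 12.38. Pf4, which encodes platelet factor 4, stood at 15.24 on control and at 17.20 on each of the other 3 arrays, so its order among those 3 was not resolved. Myl9, a myosin light chain of platelets and smooth muscle, had 6.80, 9.16, 9.27 and 8.95. Over the whole list the median difference from control was 1.37 for electro-acupuncture, 1.38 for astragalus and 1.245 for cisplatin, all against the same control array.

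Platelet genes are known targets of GATA and ETS transcription factors. Gp5 is shown because its promoter holds more than 1 GATA match, which 2.72% of all 32851 promoters did. The sequence is that of the RefSeq table, GRCm38.p6, for the 250 bases before the start of Gp5 on the minus strand, chr16:30310782-30311031, read 5′ to 3′. Capitals mark matches to the letters AGATAA or TGATAA on either strand, here as the reverse complement.
Gp5 promoter: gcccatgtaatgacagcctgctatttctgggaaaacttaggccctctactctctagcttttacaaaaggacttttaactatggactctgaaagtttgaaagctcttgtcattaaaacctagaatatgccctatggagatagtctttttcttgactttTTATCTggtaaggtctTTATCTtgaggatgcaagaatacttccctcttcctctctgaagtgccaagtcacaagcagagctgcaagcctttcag
The matches begin 93 and 77 bases before the start. Of the 20 platelet genes, 16 had a promoter in the table and 5 of those had a GATA match (Clec1b, F2rl2, Gp5, Gp6 and Mmrn1), against 16.6% of all 32851 promoters. Matches to the ETS letters AGGAAG or CGGAAG were found in 8 of the 16, against 39.2% of all. A match describes the letters and is not a binding site.

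B cell genes formed the main group that was lower. Of 20 early B cell genes compared, 16 were lower and 4 higher on the electro-acupuncture array, 10 of them at least 2-fold lower, where 0.534% of all protein-coding genes were. Il7r, the interleukin 7 receptor on which early lymphocytes depend, read 10.81 on control, 9.05 on electro-acupuncture, 9.47 on astragalus and 8.76 on cisplatin, and was 3.39-fold lower than control. Transcription factors of the lineage were low with it. Ebf1, which commits cells to the B lineage, had 10.40, 9.19, 9.39 and 8.99 and Pax5, which maintains B identity, 8.43, 7.36, 7.62 and 7.66. Bach2 had 8.63, 7.27, 7.58 and 7.17, and Myb, needed by many blood progenitors, 11.66, 10.24, 10.59 and 10.34. Among genes of the pre-B cell receptor pathway, Cd79b, a signalling chain, had 10.54, 9.33, 9.87 and 9.22 and the adaptor Blnk 9.28, 7.98, 8.17 and 7.93. In each of these genes the control array was highest.

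Some of the largest differences downward lay outside the B cell lists. Lrmp, a membrane protein of lymphoid cells, read 11.51 on control, 9.90 on electro-acupuncture, 10.51 on astragalus and 10.31 on cisplatin. Dpp4, a cell surface peptidase, had 8.86, 7.53, 7.58 and 7.40. Control was highest for both.

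Not all early B cell genes were low. Vpreb1, part of the surrogate light chain of pre-B cells, differed by -0.07, with 7.04 on control and 6.97 on electro-acupuncture. Dntt, the enzyme that adds bases at antigen receptor joins, read 6.51 on control, 7.43 on electro-acupuncture, 6.75 on astragalus and 6.34 on cisplatin, and was the member with the largest difference upward, 0.92. The median of the list was -0.955 for electro-acupuncture, -0.74 for astragalus and -1.205 for cisplatin, each minus the shared control.

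All 17 mature B cell genes compared were lower on the electro-acupuncture array, 4 of them at least 2-fold. Cd72, a surface receptor of B cells, read 9.52 on control, 7.87 on electro-acupuncture, 8.16 on astragalus and 8.11 on cisplatin, a 3.14-fold difference. Spib, a transcription factor of B cells and plasmacytoid dendritic cells, had 9.03, 7.42, 7.86 and 7.48. Ms4a1, which encodes the surface protein CD20, had 8.32, 7.15, 7.06 and 7.58. Ighm, the constant region of IgM, differed by -0.02, so this constant region read alike on both arrays. The list median was -0.58 for electro-acupuncture, -0.42 for astragalus and -0.36 for cisplatin. Antigen receptor V segment genes, outside the list, lay the other way. Of 214 compared, 18 were at least 2-fold higher and 0 lower, where 4.15% and 3.11% of all genes were. Their median difference was 0.3. The median of plasma cell genes was 0.07, 8 of 11 were higher, and the single member at least 2-fold lower was Irf4, a factor also used by B cells, with 7.48, 6.22, 6.71 and 6.09. T and NK cell genes had a median of 0.06, and 9 of the 15 compared were within 1 of the floor on all 4 arrays, which leaves little room to read a lower level.

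**Figure D3:**
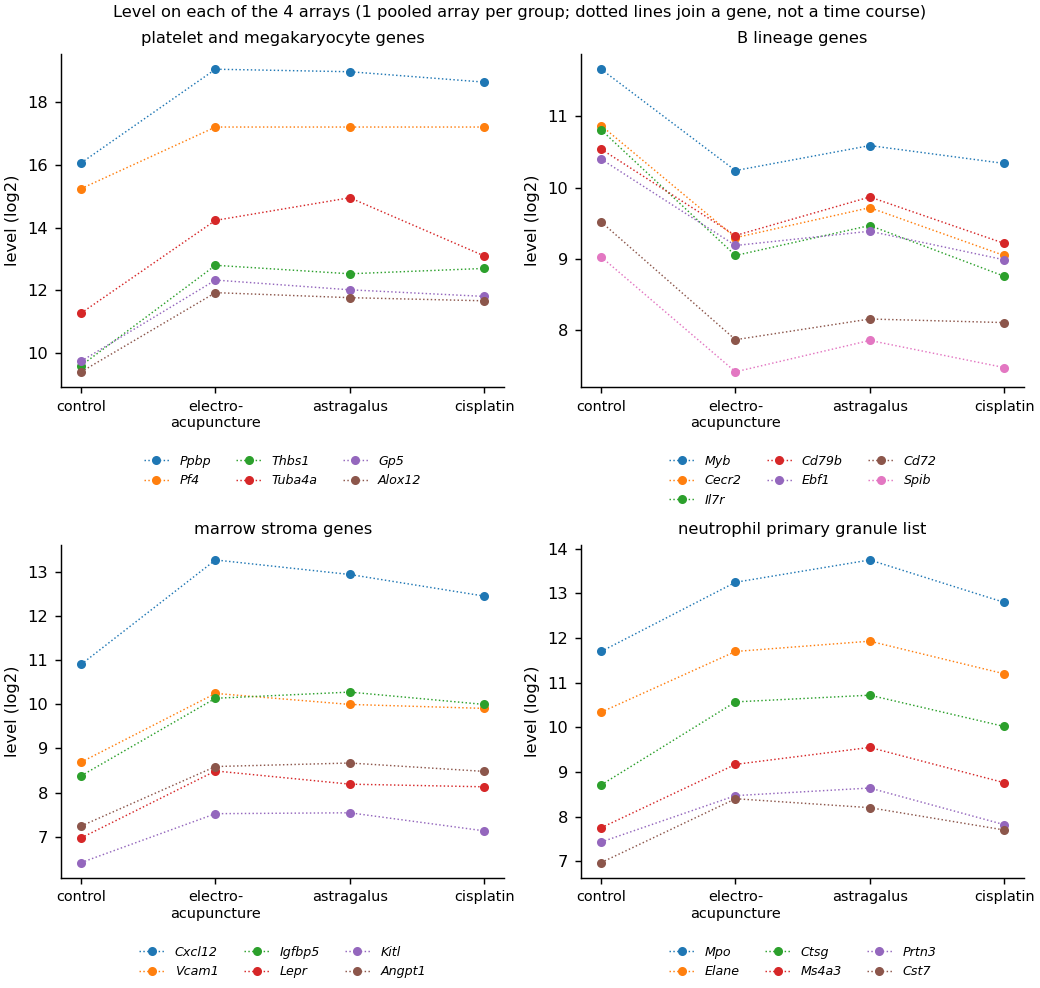
The log2 level of named genes (vertical axis) on each of the 4 arrays (horizontal axis), in 4 panels for platelet, B lineage, marrow stroma and neutrophil primary granule genes; each point is 1 pooled array and dotted lines only join a gene. The control array is the lowest point of every gene in the platelet, stroma and granule panels and the highest of every gene in the B lineage panel.

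Genes of the marrow stroma were higher as a group. All 17 niche genes compared were higher on the electro-acupuncture array, where 53.3% of all protein-coding genes were, and 8 of them at least 2-fold, against 2.72%. Cxcl12, the chemokine that retains stem cells and B cell precursors in the marrow, read 10.91 on control, 13.28 on electro-acupuncture, 12.95 on astragalus and 12.46 on cisplatin, and was 5.17-fold higher. Kitl, the ligand of the stem cell receptor Kit, had 6.41, 7.52, 7.54 and 7.13, and Angpt1, a vessel and niche factor, 7.24, 8.59, 8.67 and 8.48. Lepr, the leptin receptor that marks perivascular stromal cells, had 6.97, 8.49, 8.19 and 8.13, and Vcam1, an adhesion molecule of stroma and macrophages, 8.69, 10.25, 10.00 and 9.91. These stromal genes were lowest on control. Foxc1, a transcription factor of the same cells, differed by 0.02. The list median was 0.90 for electro-acupuncture, 1.13 for astragalus and 0.72 for cisplatin, all minus the shared control.

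Genes of the extracellular matrix were read on a further list, put together after the values were seen, which therefore describes the data and supports nothing. Of its 17 members compared, 9 were at least 2-fold higher. Bgn, the small leucine-rich proteoglycan biglycan, had 6.87 on control, 8.59 on electro-acupuncture, 8.40 on astragalus and 8.20 on cisplatin. Mgp, an inhibitor of calcification, had 6.56, 8.16, 7.49 and 7.29, and Sfrp4, a secreted Wnt antagonist, 6.77, 8.22, 7.52 and 7.36. Both were highest on the electro-acupuncture array by at least 0.5. Serping1, the inhibitor of complement C1, had 7.48, 9.77, 9.32 and 8.29, a 4.89-fold difference from control.

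Bone, fat and vessel genes were less uniform. Of 14 osteoblast and bone matrix genes, 11 were higher and 2 lower, with 5 at least 2-fold higher, against 2.72% of all protein-coding genes. The median of the 14 was 0.455. With the level filter at the 75th percentile, which left 7 of them, the median was 1.36. Bglap2 and Bglap, near-identical genes for osteocalcin between which the signal may be split, read 8.47 and 8.96 on control, 10.53 and 10.45 on electro-acupuncture, 12.23 and 11.95 on astragalus and 14.09 and 13.68 on cisplatin. The electro-acupuncture array was thus 4.17-fold above control for Bglap2 and lay below both other treated arrays. Sparc, another bone matrix protein, had 9.40, 11.00, 11.13 and 12.35. Col1a1, which encodes a type I collagen chain, had 6.87, 7.25, 7.79 and 9.15, a difference of 0.38 for electro-acupuncture.

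Of 10 fat cell genes, 9 were higher and 2 at least 2-fold, against 2.72% of all protein-coding genes, with a median of 0.40. Adipoq, which encodes the fat cell hormone adiponectin, read 6.55 on control, 8.63 on electro-acupuncture, 8.11 on astragalus and 8.01 on cisplatin, and Lpl, a lipase of fat cells and macrophages, 6.08, 7.87, 7.22 and 7.50. Both had their highest value on the electro-acupuncture array. Scd1, a fatty acid desaturase, and Fabp4, a fatty acid carrier, did not follow them: Scd1 had 10.00, 10.44, 12.09 and 12.35 and Fabp4 7.74, 8.66, 9.04 and 9.76, with both other treated arrays above electro-acupuncture. Of 15 endothelial genes, 14 were higher and none reached 2-fold, the median was 0.43, and 10 were within 1 of the floor on all arrays. The largest endothelial difference was 0.84 for Vwf, which platelets also carry. Among 11 osteoclast genes the median was 0.09. Ctsk, the collagen-degrading protease of osteoclasts, had 5.64, 6.70, 6.20 and 6.83, and the bone-resorption marker Acp5 differed by -0.13.

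Genes of early neutrophil granules were higher, and those of later granules had a median near 0. Of 14 members of the primary granule list, 12 were higher and 7 at least 2-fold, against 2.72% of all protein-coding genes. Mpo, myeloperoxidase, read 11.70 on control, 13.25 on electro-acupuncture, 13.75 on astragalus and 12.80 on cisplatin, a 2.93-fold difference. The granule proteases followed it, with Ctsg (cathepsin G) at 8.71, 10.57, 10.72 and 10.02 and Elane (neutrophil elastase) at 10.34, 11.70, 11.93 and 11.20. Astragalus held the highest value of each of these 3 genes. The transcription factor Gfi1, which acts at the same stage, differed by -0.08. In the list of secondary and tertiary granule genes, 11 of 22 were higher and 6 lower, and the median was 0.035. Ltf, lactoferrin, stood at 16.39, 16.22, 16.81 and 16.11. Pglyrp1, a peptidoglycan-binding granule protein, was the only member at least 2-fold apart, with 11.87, 13.40, 13.75 and 12.02. S100a8 and S100a9 were at the ceiling of 19.93 on all 4 arrays and gave no difference.

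Stefins, small inhibitors of cysteine proteases found in neutrophils, were higher in all 5 members compared, each at least 2-fold. Stfa1 read 9.84 on control, 12.61 on electro-acupuncture, 14.56 on astragalus and 12.91 on cisplatin, and Stfa2l1 had 12.15, 14.13, 16.96 and 15.67. For these 2 genes the electro-acupuncture array lay between control and both other treated arrays. The list median was 1.71 for electro-acupuncture, 4.49 for astragalus and 3.07 for cisplatin, minus the shared control. The Stfa genes are close copies of each other, and their probes may share signal.

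Macrophage genes included several for which the electro-acupuncture array was the highest of the 4. Of 22 monocyte and macrophage genes, 19 were higher and 5 at least 2-fold, where 53.3% and 2.72% of all protein-coding genes were. The list median was 0.345, against 0.12 for astragalus and 0.125 for cisplatin, all minus the shared control. Hmox1, the heme-degrading enzyme of iron-recycling macrophages, read 8.05 on control, 9.76 on electro-acupuncture, 8.92 on astragalus and 9.19 on cisplatin. Mrc1, the mannose receptor, had 7.65, 9.06, 8.49 and 8.27, and Cd68, a lysosomal protein, 7.86, 9.08, 8.56 and 8.39. In all 3 genes electro-acupuncture was highest and control lowest. C1qb, a chain of complement C1q made by resident macrophages, had 5.13, 6.25, 4.98 and 5.18. Its values on control, astragalus and cisplatin all lay under the floor of 5.235, so its fold is uncertain. C1qb thus passed the level filter only through the electro-acupuncture array, and it is counted among the 5 at least 2-fold higher. With that limit, it was the only protein-coding gene that exceeded all 3 other arrays by at least 1. Its partners differed less, C1qc with 5.64, 6.31, 5.57 and 5.52 and C1qa, whose mean was under the floor, with 4.81, 5.59, 5.11 and 5.02. Among monocyte genes, Ly6c2 had 16.43, 16.13, 16.85 and 15.99, the chemokine receptor Ccr2 had 8.33, 8.41, 8.24 and 8.22, and Csf1r, the receptor for the growth factor M-CSF, had 6.14, 6.36, 6.26 and 6.14.

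The lowest protein-coding level on the electro-acupuncture array relative to all others belonged to Prg2, which encodes major basic protein, a toxic granule protein of eosinophils. It read 12.87 on control, 10.97 on electro-acupuncture, 12.45 on astragalus and 13.58 on cisplatin. Electro-acupuncture was 3.73-fold below control and below every other array by at least 1.48, and it was the only protein-coding gene under all 3 by 1 or more. Of the other eosinophil, basophil and mast cell genes compared, none was at least 2-fold apart. However, 6 of the 13 genes in the list were within 1 of the floor on all 4 arrays, which leaves little room to read a lower level. Prss34, a protease of basophils, was lower too, with 7.90, 7.01, 7.43 and 6.89. Prg3, a close relative of Prg2, had 6.52, 5.94, 5.81 and 6.28, and the eosinophil chemokine receptor Ccr3 had 5.81, 6.61, 6.34 and 6.61. The list had 7 of 13 genes higher, 5 lower and a median of 0.03.

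Of the 365 protein-coding genes at least 2-fold apart, 15 were under all 3 other arrays by at least 0.5, Prg2 among them, and 15 were above all 3 by as much. The genes above include the olfactory receptor genes Olfr1219 and Olfr998, the defensin gene Defb39 and Pate12, none higher than 7.14 on any array. Olfr1219, Atp6v0d2 and C1qb were under the floor on control, at 4.72, 4.92 and 5.13, so their folds are uncertain. The genes under all 3 also include Fas, for which no direction is read, for a reason given below. Lyst, a lysosome-trafficking regulator, read 11.04 on control, 9.89 on electro-acupuncture, 10.63 on astragalus and 10.83 on cisplatin. Syk, a tyrosine kinase downstream of antigen and Fc receptors, had 8.86, 7.76, 8.38 and 8.31. Cdkn1b, which encodes the cell cycle inhibitor p27, had 10.32, 8.99, 9.74 and 9.56. Slfn4, an interferon-inducible gene of myeloid cells, had 13.70, 12.63, 13.35 and 13.97. In these genes both other treated arrays lay between electro-acupuncture and control, except that Slfn4 was highest on cisplatin. Itpr2, a calcium release channel of the endoplasmic reticulum, had 9.50, 7.92, 8.42 and 8.66. Dock2, an activator of Rac in blood cells, had 10.19, 9.01, 9.58 and 9.82. Tnc, the matrix protein tenascin C, was among the genes highest on the electro-acupuncture array, with 6.04, 7.35, 6.74 and 6.78.

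**Figure D4:**
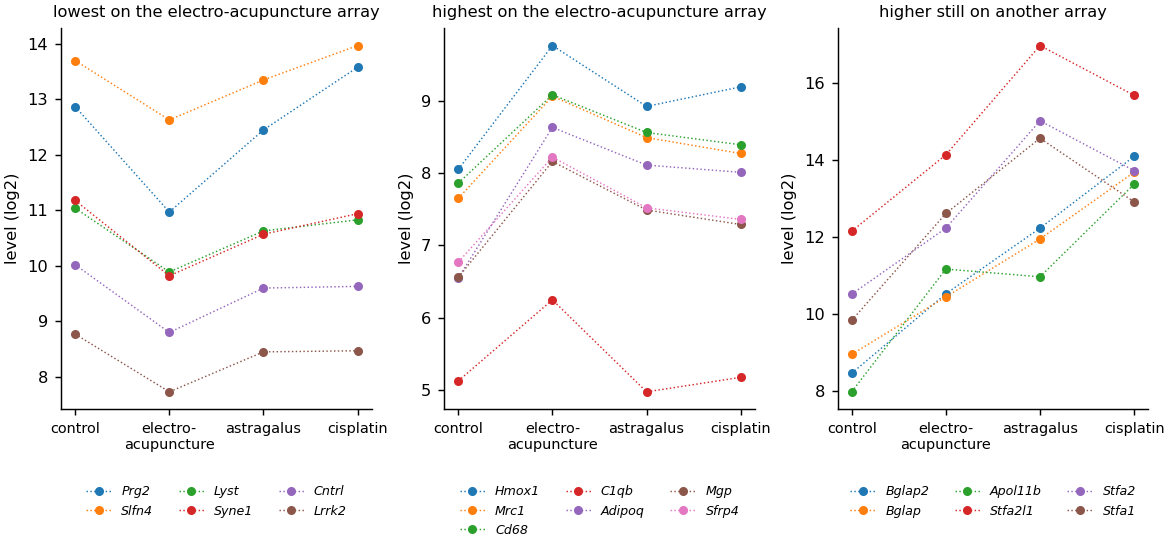
The log2 level (vertical axis) of named genes on the 4 arrays (horizontal axis): genes lowest on the electro-acupuncture array, genes highest on it, and genes above control on it but higher still on another array; each point is 1 pooled array. Prg2 stands at 10.97 against 12.87 on control, Hmox1 stands at 9.76 against 8.05, and Bglap2 at 10.53 lies between control at 8.47 and cisplatin at 14.09.

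Red cell genes lay on both sides of control, and most stem and progenitor genes compared were higher. Of 24 genes for red cell membrane proteins and enzymes, 13 were higher and 10 lower, none at least 2-fold, and the median was 0.045 against 0.48 for astragalus and -0.165 for cisplatin. Slc4a1, the band 3 anion exchanger, read 15.24 on control, 15.19 on electro-acupuncture, 15.92 on astragalus and 15.02 on cisplatin. Alas2, the rate-limiting enzyme of heme synthesis in red cell precursors, was 0.36 higher than its control level of 14.64, and Epor, the erythropoietin receptor, had 8.51, 8.01, 8.51 and 8.22. Heme synthesis and iron genes had a median of 0.08 and erythroid regulators -0.10. Of 12 stem and progenitor genes, 10 were higher, where 53.3% of all protein-coding genes were, with a median of 0.22. Kit differed by -0.05 and Cd34 by 0.15. The 3 members at least 2-fold higher, against 2.72% of all protein-coding genes, were Angpt1, Slamf1 and Myct1. Angpt1 is also counted in the niche list. Slamf1, a surface marker of stem cells, had 8.59, 9.99, 10.07 and 10.04.

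Genes of the oxidative stress response were mostly higher. Of 15 members of the NRF2 and metallothionein list, 12 were higher and 6 at least 2-fold, against 2.72% of all protein-coding genes. The list median was 0.71, against 0.87 for astragalus and 0.62 for cisplatin. Mt2, a metallothionein that binds zinc and copper, read 9.70 on control, 11.99 on electro-acupuncture, 11.94 on astragalus and 11.28 on cisplatin, a 4.89-fold difference, and its neighbour Mt1 had 7.55, 9.18, 9.31 and 8.42. Gstm1, a glutathione transferase, had 7.88, 9.71, 10.31 and 9.13. Sod1, the cytosolic superoxide dismutase, had 14.29, 15.77, 15.97 and 15.02. Hmox1, described above with the macrophage genes, is also a member of this list and counted among the 6, with a difference of 1.71. Nqo1 and Gclc, standard NRF2 targets, did not follow, with differences of -0.26 and -0.45.

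The metallothionein promoters are switched on through the metal response element, searched here as TGCACNC or TGCGCNC on both strands. The Mt2 promoter is shown because it held 3 matches, which 1.26% of all 32851 promoters did. It is the RefSeq sequence of GRCm38.p6, chr8:94172368-94172617 on the plus strand, the 250 bases before the start, with the matches in capitals.
Mt2 promoter: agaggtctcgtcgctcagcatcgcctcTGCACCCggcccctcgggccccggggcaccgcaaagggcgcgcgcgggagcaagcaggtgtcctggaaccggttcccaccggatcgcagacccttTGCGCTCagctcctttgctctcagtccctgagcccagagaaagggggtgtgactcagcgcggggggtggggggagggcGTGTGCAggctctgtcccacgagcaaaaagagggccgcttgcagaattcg
The matches begin 223, 128 and 50 bases before the start, the last on the opposite strand. The window before Mt1 held 1 match, at 23 bases. Bases outside the 250 before the annotated start were not searched, so these counts may leave out elements of either gene. Of the 15 genes of the list, 12 had a promoter in the table and 4 of them a match (Gstm1, Mt1, Mt2 and Srxn1), against 21.4% of all promoters.

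Targets of p53, the factor that answers DNA damage, had no common direction. Of 15 genes, 7 were higher and 8 lower, with a median of -0.05. Cdkn1a, which encodes the cell cycle inhibitor p21, read 6.64 on control, 8.27 on electro-acupuncture, 8.03 on astragalus and 8.76 on cisplatin, and Ccng1, cyclin G1, had 8.10, 9.84, 9.64 and 9.35. Mdm2, the p53 inhibitor that p53 itself induces, differed by -0.11. Fas, a death receptor, differed by -1.78 on the cluster with the highest mean, with 10.52, 8.74, 9.56 and 10.01. The identifier of that cluster names chromosome 17 while RefSeq places Fas on chromosome 19, and the Fas cluster on chromosome 19 gave 0.21, so no direction is read for this gene. The count of 8 lower genes includes it.

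Interferon-stimulated genes had no common direction. Of 24 interferon-stimulated genes, 11 were higher and 13 lower, with a median of -0.065. Ifi209, a member of the interferon-inducible HIN200 family, had the largest difference downward of any protein-coding gene compared. It read 10.63 on control, 8.24 on electro-acupuncture, 8.97 on astragalus and 8.38 on cisplatin, a 5.24-fold difference. Its relative Mndal differed by -0.59 and Ifi207 by 0.53. The antiviral genes Ifit1 and Rsad2 differed by -0.44 and 0.42. Cxcl9, a chemokine induced by interferon gamma, was higher, with 6.37, 8.48, 7.97 and 8.52. Ifitm2, an interferon-induced membrane protein that also responds to other signals, had 7.54, 10.24, 10.51 and 9.58, and Ifitm3 11.66, 13.24, 13.33 and 13.17.

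Apolipoprotein L genes are a mouse family of lipid-binding proteins. All 5 members whose mean reached the floor were higher on the electro-acupuncture array, 3 of them at least 2-fold. Apol10b, among these 5, had 4.87 on control, 5.67 on electro-acupuncture, 5.04 on astragalus and 5.62 on cisplatin. Its control and astragalus values lay under the floor of 5.235, so it passed the filter through electro-acupuncture and cisplatin, and its fold is uncertain. Apol11b read 7.99 on control, 11.17 on electro-acupuncture, 10.97 on astragalus and 13.37 on cisplatin, and Apol11a 6.71, 8.84, 8.76 and 10.47. Electro-acupuncture and astragalus lay near each other, and cisplatin was highest. The median of 2.00 rests on the filter: over all 12 genes of the family, with 7 under the floor, it was 0.23.

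Signalling genes differed singly. Of 22 cytokine and cytokine receptor genes, 11 were higher and 10 lower, with a median of 0.05. Csf3r, the receptor for the granulocyte growth factor G-CSF, read 10.52 on control, 9.80 on electro-acupuncture, 10.48 on astragalus and 10.20 on cisplatin. Among 19 inflammatory genes the median was 0.13, and the 2 at least 2-fold higher were Il1rn, the antagonist of the interleukin-1 receptor, with 6.98, 8.43, 8.14 and 7.69, and the chemokine Ccl9 with 6.40, 7.75, 7.63 and 7.41. Il1b itself differed by 0.32. The median of immediate early and heat shock genes was -0.02, and Fos had 6.43, 6.23, 5.58 and 8.95. Of 32 genes for neurotransmitter, opioid and adrenergic signalling, 7 passed the floor, with a median of 0.06. The largest of these differences was 0.69 for Npy, the peptide of sympathetic nerves that is also made in megakaryocytes, with 10.34, 11.03, 10.89 and 11.23.

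The remaining lists held single genes rather than a common direction. Of 15 dendritic cell and MHC class II genes, 5 were higher and 9 lower, with a median of -0.07. Cst3, a secreted cysteine protease inhibitor abundant in dendritic cells, read 8.03 on control, 9.32 on electro-acupuncture, 9.10 on astragalus and 8.29 on cisplatin, and was the only member at least 2-fold apart. Siglech, a marker of plasmacytoid dendritic cells, had 7.26, 6.56, 6.09 and 6.52. Of 15 genes that respond to glucocorticoids, 11 were higher, with a median of 0.11, and only Mt2, described above, was at least 2-fold apart. Clock genes had a median of 0.01, with 10 of 14 near the floor, apoptosis genes -0.01 and cholesterol synthesis genes 0.20. Bcl2a1d, a survival gene of myeloid cells, had 5.59, 6.60, 6.07 and 6.01. Nsdhl, an enzyme of the cholesterol pathway, had 6.31, 7.30, 7.46 and 6.84.

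Genes of mitosis and of DNA replication were all within 2-fold of control in the 2 lists read. Of 32 genes of mitosis, 10 were higher and 22 lower, with a median of -0.195, against 0.45 for astragalus and -0.38 for cisplatin. Cenpf, a kinetochore protein, read 10.82 on control, 9.98 on electro-acupuncture, 10.94 on astragalus and 10.03 on cisplatin. Plk1, a mitotic kinase, lay the other way, with 9.71, 10.44, 10.68 and 9.71. Of 32 genes of DNA replication and nucleotide supply, 24 were higher, with a median of 0.18. Of 27 histone genes that are expressed with replication, 18 were higher and 9 lower, and the only member at least 2-fold apart was the linker histone gene H1f2, with 9.50, 10.68, 11.29 and 10.66.

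Respiratory chain and ribosomal protein genes were higher in nearly all members, most of them by less than 2-fold. All 33 respiratory chain genes compared were higher, 6 of them at least 2-fold, against 2.72% of all protein-coding genes. The list median was 0.60, against 0.73 for astragalus and 0.20 for cisplatin. Ndufb9, a subunit of complex I, read 10.72 on control, 12.66 on electro-acupuncture, 12.52 on astragalus and 11.66 on cisplatin, and Cox7a2, a subunit of cytochrome oxidase, had 10.34, 12.25, 12.46 and 11.42. Of 34 ribosomal protein genes, 33 were higher and 5 at least 2-fold, against 2.72% of all protein-coding genes. The list median was 0.52. The 5 include Rpl12 and Rpl27, whose cluster identifiers name chromosomes 10 and 18 while RefSeq gives 2 and 11. The Rpl27 cluster on chromosome 11 gave 0.75. The many pseudogenes of ribosomal protein genes can share probe signal. Glycolysis genes had a median of 0.16, with Gapdh at 10.65, 11.27, 11.34 and 11.27. The next 3 lists were put together after the values were seen, so they describe the machinery of protein making, folding and turnover, and support nothing. Of 36 proteasome subunit genes 34 were higher and 11 at least 2-fold, among them Psma5 with 10.97, 13.32, 13.14 and 11.97. All 7 genes of the CCT chaperonin, which folds actin and tubulin, were higher, with Cct2 at 11.50, 13.09, 13.35 and 12.59. Of 20 aminoacyl-tRNA synthetase genes, 18 were higher and 5 at least 2-fold.

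Many snRNA and rRNA genes were lower, and the largest of these differences exceeded that of any protein-coding gene. Of 586 snRNA genes compared, 284 were at least 2-fold lower and 3 higher, with a median of -0.94, where 3.11% of all genes were that much lower and 4.15% higher. The snRNA genes that far apart held 217 distinct sets of values. Of 61 rRNA genes 55 were at least 2-fold lower, with a median of -2.70; the rRNA genes held only 21 distinct sets of values, so they are not independent, and for 33 of them the cluster identifier names another place than RefSeq. Rnu5g, a U5 RNA of the spliceosome, read 16.12 on control, 11.32 on electro-acupuncture, 10.37 on astragalus and 12.96 on cisplatin, a 27.9-fold difference. Rmrp, the RNA of the ribonuclease MRP, had 15.42, 12.61, 12.38 and 15.15, and Rnu1a1, a U1 RNA, 16.45, 12.99, 13.09 and 15.30. Electro-acupuncture and astragalus were lowest in both of the last genes; cisplatin was 0.27 below control for Rmrp and 1.15 below it for Rnu1a1. Of 39 C/D box snoRNA genes, which guide methylation of ribosomal RNA, 6 were at least 2-fold higher and 6 lower, and Snord17 had the largest of these differences, with 15.76, 12.74, 11.63 and 14.04. Of 17 H/ACA box genes, which guide pseudouridylation, 1 was higher and 3 lower by as much. Ribosomal protein pseudogenes were higher instead, 177 of 206, with 60 at least 2-fold higher and none at least 2-fold lower. Pseudogenes as a class had 337 of 2646 genes at least 2-fold higher and 54 lower. RNA quality was not among the values used here, and the part of RNA recovery or fragmentation in these differences, or in those of the protein-coding genes, was not tested.

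The higher protein-coding genes were also shorter in the genome. The median genomic span was 11.2 kb over the genes at least 2-fold higher, 62.0 kb over those at least 2-fold lower and 21.5 kb over all compared. With the genes ranked by span, the 2808 shortest held 128 that were at least 2-fold higher and 13 lower. The 2807 longest, those of at least 49.8 kb, held 38 higher and 31 lower. Among genes with a mean of at least 8 over the 2 arrays, the median difference was 0.29, 0.15, 0.02 and -0.13 from the shortest to the longest of the 4 span groups. The lists differ in span too: the median was 7.1 kb for respiratory chain genes and 3.7 kb for ribosomal protein genes, 13.9 kb for platelet genes, 19.7 kb for niche genes and 33.2 kb for early B cell genes. The part of gene span or transcript length in the list medians was not tested.

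**Figure D5:**
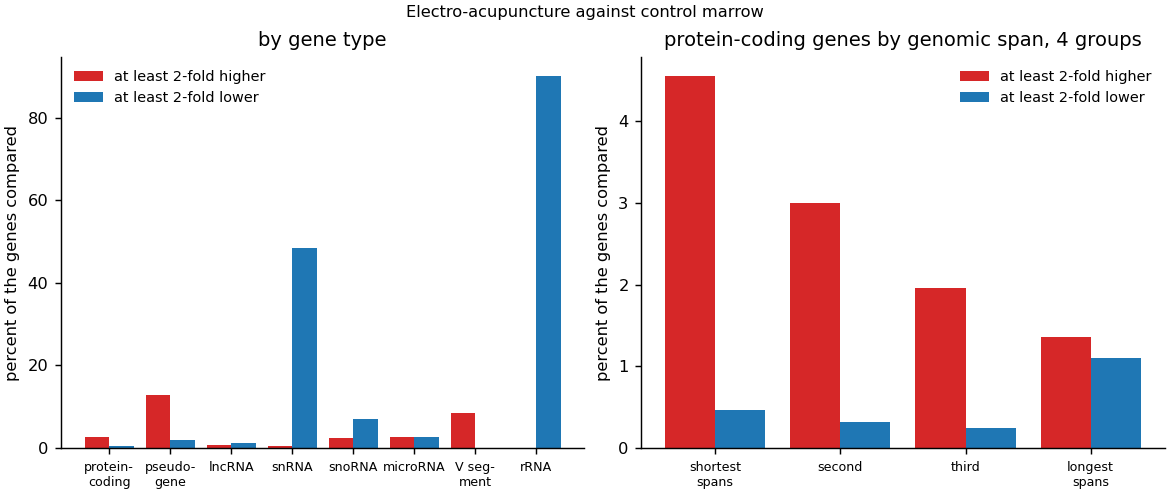
Bars give the percentage of compared genes (vertical axis) at least 2-fold higher (red) or lower (blue) on the electro-acupuncture array, by gene type in the left panel and by genomic span of protein-coding genes in 4 groups in the right panel. The lower genes concentrate in rRNA (55 of 61) and snRNA (284 of 586), and among protein-coding genes the excess of higher genes shrinks from 128 against 13 in the shortest group to 38 against 31 in the longest.

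MicroRNA genes were measured through clusters at their hairpins, which can also pick up the longer host transcript and do not measure the mature molecule. Of 528 compared, 13 were at least 2-fold higher and 14 lower, with a median of 0.11, where 4.15% and 3.11% of all genes were. Mir15a stood out in level. It read 12.76 on control, 10.33 on electro-acupuncture, 11.12 on astragalus and 11.00 on cisplatin, a difference of -2.43. Its mature product belongs to the miR-15/16 family, which is known for holding down Bcl2 and cyclins in lymphocytes. The mature sequences of Mir15a and of Mir195a, a family member at another locus, are shown because they share the seed, bases 2 to 8, in capitals. They come from RefSeq, GRCm38.p6, at chr14:61632075-61632096 on the minus strand and chr11:70235062-70235082 on the plus strand.
miR-15a-5p: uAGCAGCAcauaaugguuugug
miR-195a-5p: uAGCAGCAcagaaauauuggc
Mir195a, with the same seed, had 6.97, 6.74, 6.43 and 6.32, a difference of -0.23, and Mir15b had 4.66, 4.41, 4.89 and 4.71, under the floor on all 4 arrays, so a lower level could not show there. How much of the Mir15a signal comes from the host transcript was not tested.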

How the data were processed

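The authors deposited 1 log2 value per transcript cluster and array, made with Affymetrix Expression Console per the submitters' processing notes; the sources used here give no version, summary method or genome build. Of 65956 clusters, 32750 were in the platform's gene table, 31258 with 1 gene symbol and 1492 with several, which were not used, and 33206 are unnamed here. Symbols, gene types and spans came from RefSeq, GRCm38.p6. A gene with several clusters (338 of those compared) was read from the cluster with the highest mean, and genes with a mean under 5.235, the median of all clusters, were left out.

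Differences of log2 values were counted by size, at 1 or more, with no test, since each group has 1 array. Precision is limited by the number of arrays. The gene lists, the members and the rule for named genes were chosen with earlier results of these data known. A rule picked 282 genes, of which the text describes a part, so a gene left out may differ as much as one described. Left out are, for example, Mctp2 (-1.75) and Ppic (2.35). The rule took the 20 protein-coding genes furthest above control and the 20 furthest below, and the 6 furthest of other types on either side. It added up to 6 members per list and a fixed set of 16 that includes Mpo, Kit and Gapdh. Some genes at least 0.5 beyond the 3 other arrays are described as well. Unnamed models, receptor segments and ceiling genes were passed over. Members named with small differences, such as Foxc1, Ighm, Vpreb1, Dntt, Gfi1, Csf1r, Col1a1, Slc4a1, Cd34, Nqo1 and Il1b, and Rmrp, were added after their values were seen, for the defining role of the gene. Alternatives were quantile normalization, removal of a lowess trend (span 0.3), other filters, the mean of a gene's clusters, clusters on the RefSeq chromosome only, and 4 groups by genomic span; the last 2 were chosen after seeing the data. Calculations used Python 3.11.15 with pandas 2.3.3, numpy 2.4.6, scipy 1.17.1 and statsmodels 0.14.6, and figures matplotlib 3.10.9. The counting was tested on simulated data.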

Additional observations from a re-analysis of the deposited data

How the results depend on the processing

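No paired analysis was possible because each group has 1 array, and for the same reason no array could be left out. The count of 365 protein-coding genes was 383 after quantile normalization, 326 with the level trend removed, 377 without a filter, 342 at the 75th percentile, 361 with both arrays at or above the floor, 356 with the mean of a gene's clusters and 358 with clusters on the RefSeq chromosome only. The share of higher genes was 77.3% with the trend removed. By genomic span, an alternative chosen after seeing the data, the 2807 longest genes gave 69 and a share of 55.1%, and the 2808 shortest gave 141 and 90.8%, counts taken over fewer genes. Over all gene types, removal of the trend gave 568 higher and 575 lower genes against 714 and 535. Among list medians, 2 moved: apolipoprotein L to 0.23 without the filter, and bone to 1.36 at the 75th percentile, both through the genes included. Among the genes picked by the naming rule, the only reversed value was that of Fas, 0.21 with clusters on the RefSeq chromosome. Under any other setting, at most 6 of 282 genes crossed 2-fold or changed by more than 1.5-fold. Levels near the floor limit what the T cell, endothelial, muscle, and eosinophil, basophil and mast cell lists can show.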
